A study of Homo sapiens with 30 samples.

Results

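Among the 57992 genes of an RNA-Seq table of Omomyc-treated cells, 70 were protein-coding genes of the translation factor families. The symbol begins with EIF for 56 of them (eukaryotic initiation factors and their kinases and binding proteins) and with EEF for 14 (eukaryotic elongation factors and the enzymes that modify them). They were found by matching the Ensembl identifier of each row to GENCODE release 29, with no use of the measured values. Levels are given for 69 of them, since EIF1AY is counted but its values are not shown. EEF1AKMT4, EEF1AKMT4-ECE2 and EEF1AKNMT were not analysed here.

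Protein synthesis begins when eIF1, eIF1A, eIF3 and eIF5 gather on the small ribosomal subunit together with eIF2, which brings the initiator tRNA, and eIF2B reloads eIF2 with GTP unless one of the eIF2 alpha kinases has phosphorylated eIF2. The cap of the mRNA is held by eIF4E, which joins the scaffold eIF4G and the helicase eIF4A, helped by eIF4B and eIF4H, and which the eIF4E binding proteins can keep away from eIF4G. Elongation then relies on eEF1A to deliver aminoacyl-tRNA, on the eEF1B exchange factors to recycle eEF1A, and on eEF2, which EEF2K can inhibit, to move the ribosome. Several of these genes are known as targets of MYC, and the mRNAs of most elongation factors belong to the TOP class, which begins with a pyrimidine run and is translated according to nutrient supply.

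Omomyc is a miniprotein derived from the dimerization and DNA binding domains of MYC, and the series asked how it alters transcription in MYC-driven cancer cells. HCT116 is a colorectal carcinoma line in which MYC protein is stabilized, and Ramos is a Burkitt lymphoma line with a MYC translocation. Each line had 5 groups of 3 libraries. HCT116 cells were untreated or received Omomyc at 10 μM or at a lower dose for 6 or 24 h. The lower dose is 2 μM in the labels and 2.5 μM in the methods text, and the methods of the study describe delivery into HCT116 cells with the protein transfection reagent ProteoJuice. Ramos cells were untreated or received 0.5 or 2.5 μM for 6 or 24 h, and no delivery reagent is described for them. Whether the untreated HCT116 cells received ProteoJuice is not stated, so the reagent and Omomyc cannot be told apart in that line. Each line has a single untreated group with no time point, so the 4 comparisons with untreated cells within a line share their controls. Time in culture and treatment can likewise not be told apart. Whether the 3 replicates were separate cultures is not stated, and p-values then cover only the spread between these libraries.

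Levels are given as deposited, in RPKM (reads per kilobase of transcript, scaled to the mapped reads of the library), with SD over 3 libraries. The epithelial genes EPCAM, KRT8, KRT18, KRT19 and CDH1 lay between 11.4 and 812 RPKM in the 15 HCT116 libraries, whereas VIL1, a marker of intestinal epithelium, did not exceed 0.0602. In Ramos, 6 B-cell genes lay between 38.6 and 635 RPKM. Relative depth, read from the step size of the lowest values, ran from 43.1 to 100% of the deepest library, and in HCT116 it was 90.1 to 100% in the untreated libraries and 43.1 to 81.1% in the treated ones. Replicate 3 of HCT116 treated with 10 μM for 6 h stood apart: it was the shallowest library and its RPKM values summed to 1051041, the highest of all 30 libraries. The values of EIF4B, EIF4E, EIF1, EIF3J and EEF2 in that group, and the main counts of called members, are also given without it. Other values that rest on it are given with it only. The part of depth in the results was not tested.

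Sequences are shown for the members on which the results turn, first around the E box, the DNA element of MYC, and then at the start of the transcript, where the TOP class has its pyrimidines. Of the 56 members found in a RefSeq table of promoter windows (GRCh38.p14, from 250 bases before to 50 after an annotated start), 14 (25%) held CACGTG, the E box bound by MYC/MAX, compared with 10.9% of 15843 protein-coding genes. CACGTG reads the same on both strands, so each site was counted once. EIF4E and EIF4G1 held 2 sites each and EIF4B, EEF2K and EIF4A3 1 each. Stretches of 50 bases around a site are shown for the cap-binding protein and its scaffold, and for EIF4B, EEF2K and EIF4A3, whose levels changed in one line or both. Capitals mark CACGTG.
EIF4E chr4:98929174-98929223 (- strand): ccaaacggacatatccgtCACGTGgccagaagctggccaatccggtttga
EIF4G1 chr3:184314516-184314565 (+ strand): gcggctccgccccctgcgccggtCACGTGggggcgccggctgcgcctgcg
EIF4B chr12:53006406-53006455 (+ strand): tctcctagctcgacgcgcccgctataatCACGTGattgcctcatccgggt
EEF2K chr16:22206198-22206247 (+ strand): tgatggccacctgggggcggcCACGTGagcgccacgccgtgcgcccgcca
EIF4A3 chr17:80147219-80147268 (- strand): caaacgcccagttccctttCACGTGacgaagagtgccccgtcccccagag

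An annotated start at a C followed by at least 4 pyrimidines was found in 13 of the 56 members (23.2%) and in 6.24% of protein-coding genes. The first 24 transcribed bases are shown for the 2 most abundant of these elongation factors and for the 4 initiation factors with such a start that are described most fully. Capitals mark the C and the pyrimidine run.
EEF1A1 chr6:73521009-73521032 (- strand): CTTTTTCgcaacgggtttgccgcc
EEF2 chr19:3985440-3985463 (- strand): CTCTTCCgccgtcgtcgccgccat
EIF4B chr12:53006456-53006479 (+ strand): CTTTTgcgttctctttccctctcc
EIF2S3 chrX:24054956-24054979 (+ strand): CTCTTTTggcaacatggcgggcgg
EIF3F chr11:7987337-7987360 (+ strand): CTTCTTTCTCgacaagatggccac
EIF4A2 chr3:186783577-186783600 (+ strand): CTTTTCagtcgggcgctgagtggt
A match says only that these letters are present in the reference, and binding of a factor was not measured.

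In untreated cells the elongation factors were the most abundant members. EEF1A1, which carries aminoacyl-tRNA to the ribosome, had 5599 ± 199 RPKM in HCT116 and 7191 ± 87.1 in Ramos, 36.4% and 42.1% of the summed RPKM of the members. EEF1G and EEF2 came next, and the levels of EEF1G, EEF2 and EEF1B2 were 1187 ± 17.2, 1003 ± 32.9 and 598 ± 25.2 RPKM in HCT116. In Ramos they were 1411 ± 11.4, 1453 ± 106 and 905 ± 9.02, and EEF1G and EEF2 did not differ beyond their spread. The helicase EIF4A1 was the most abundant initiation factor in HCT116 at 734 ± 4.10 RPKM, above EEF1B2, while in Ramos EIF4B (404 ± 5.54) and EIF3E (399.7 ± 14.3) came first, with overlapping libraries. EEF1A1 has 39 annotated pseudogenes and EIF4A1 13, so reads of these genes may have been divided among copies.

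**Figure D1:**
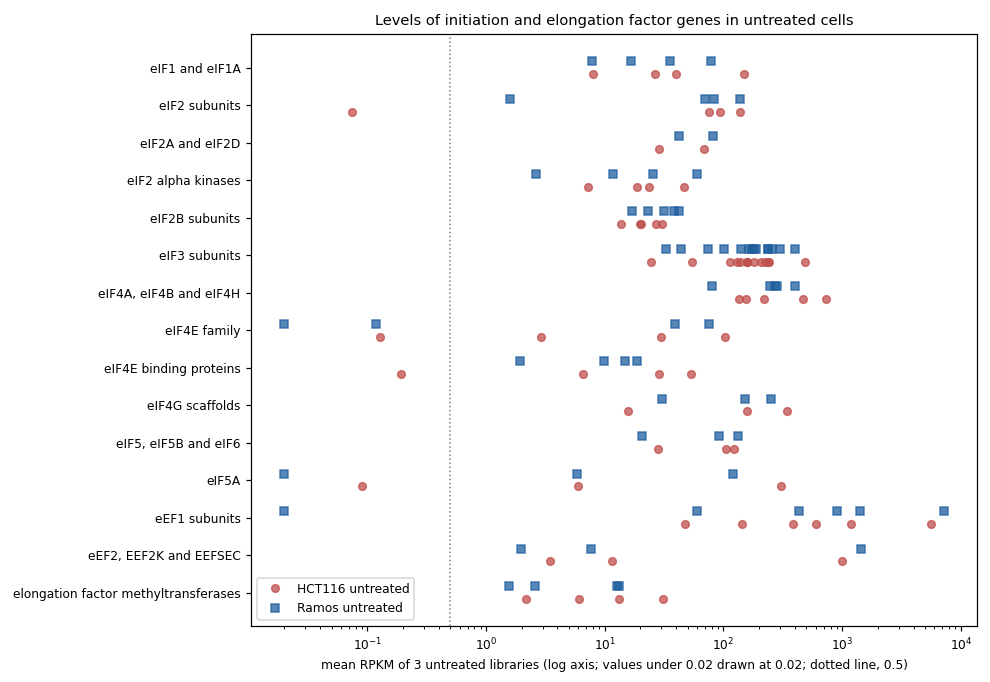
Mean RPKM (log axis) of each member in 3 untreated libraries of HCT116 (red circles) and Ramos (blue squares), by subfamily. The eEF1 subunits reach 5599 RPKM in HCT116 and 7191 in Ramos, the eIF3 subunits spread from 24.4 to 482 in HCT116, and EEF1A2 and EIF4E3 are the members seen in HCT116 and listed at 0 in Ramos.

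The subunits of one complex were far from equal in mRNA level. Among the 14 eIF3 genes of HCT116, EIF3E was highest (482 ± 12 RPKM) and EIF3J, a loosely held subunit, lowest (24.4 ± 2.00). The 3 main subunits of eIF2 lay between 75.8 and 137 RPKM, above the 5 subunits of eIF2B at 13.7 to 30.3. EIF4E stood at 103 ± 2.28 RPKM in HCT116, above its inhibitor EIF4EBP1 (53.6 ± 2.29), and in Ramos EIF4E was at 75.5 ± 2.99 and EIF4EBP1 at 14.9 ± 1.17. EEF2K, the eEF2 kinase, was at 11.6 ± 0.148 RPKM in HCT116 and 7.72 ± 0.433 in Ramos.

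The lines differed most in a few paralogs and in the eIF2 alpha kinases. EEF1A2, the second eEF1A gene, had 149, 138 and 144 RPKM in the untreated HCT116 libraries and 0 in each untreated Ramos library. EIF4E3, a divergent cap-binding protein, had 3.27, 2.70 and 2.68 RPKM in HCT116 and was likewise listed at 0 in Ramos, so no fold change is given for either gene. The kinase EIF2AK3 (PERK, the sensor of endoplasmic reticulum stress) was at 7.42, 7.57 and 6.58 RPKM in HCT116 and 63.4, 57.8 and 58.8 in Ramos, a log2 difference, HCT116 minus Ramos, of -2.98 (SE 0.0675, adjusted p = 1.76e-08). EIF2AK2 (PKR, the sensor of double-stranded RNA) went the other way, at 18.7 ± 0.7 and 2.62 ± 0.331 RPKM, a difference of 2.63 (SE 0.089, adjusted p = 1.38e-07). The groups of 3 libraries did not overlap for either kinase, as held for 85.6% of all genes in either direction.

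Of the 67 members that could be tested between the untreated lines, 56 differed (33 higher and 23 lower in HCT116), as did 84.6% of all 15647 genes (45.7% higher, 39% lower). On the log2(RPKM + 0.5) scale used for all tests, HCT116 exceeded Ramos by 1.82 for EIF4EBP1, by 1.36 for EIF4A1, by 1.33 for EIF5A, the hypusine-carrying factor, by 0.92 for EIF1 and by 0.64 for EIF3A. Ramos exceeded HCT116 for EIF2B3 (HCT116 minus Ramos -1.19). The 56 include EEF1A2 and EIF4E3, which passed the filter through HCT116 only, and EIF4EBP3 and EIF2S3B, which passed through Ramos only. EIF4EBP3 had 0.222, 0.145 and 0.211 RPKM in HCT116 and 2.55, 1.22 and 2.06 in Ramos, and EIF2S3B, a copy of EIF2S3, 0.0404, 0.0909 and 0.0909 and 1.38, 1.99 and 1.45. EIF4G1 (0.04, adjusted p = 0.505), EIF6 (-0.11, adjusted p = 0.104) and EIF2S1 (-0.13, adjusted p = 0.244) were not called different. With the RPKM of every library scaled to an equal sum the split over the members became 51 higher and 8 lower.

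Unless another is named, a comparison is that of a treated group with untreated cells of the same line. Each comparison used limma across all genes with a mean of at least 0.5 RPKM, and a member is said to have risen or fallen where the adjusted p was under 0.05. In HCT116, Omomyc was followed at both doses and times by lower mRNA of the eIF4E binding proteins EIF4EBP2 and EIF4EBP1, of the helicase cofactor EIF4B, of the eIF2 subunits EIF2S2 and EIF2S3, of the kinase EIF2AK1, of the eIF3 subunit EIF3L and of the elongation factors EEF2 and EEF1G. EIF4EBP2 and EIF4B were among the 3 largest falls in every comparison. At 24 h each of these falls was called under all of the 3 other scalings tried (median ratio, quantile and equal sums). At the lower dose and 6 h this was so for EIF4EBP2, EIF4B, EEF2 and EIF2S3, and EIF4EBP1, EIF2S2, EIF2AK1, EIF3L and EEF1G lost the call after median-ratio scaling, as EIF2S2, EIF2S3 and EEF1G did at 10 μM and 6 h. Where 4 values are given in a row for a line, they are in the order 6 h at the lower dose, 6 h at the higher, 24 h at the lower and 24 h at the higher. EIF1 and EIF3J rose at 6 h and were not called at 24 h. Both rises were called under all 3 scalings at the lower dose and neither was at 10 μM. The members together held 2.49% ± 0.167 of all RPKM in untreated HCT116 cells, 1.80% ± 0.124 and 1.41% ± 0.306 at 6 h and 2.00% ± 0.0982 and 1.97% ± 0.180 at 24 h in order of dose. Their own summed RPKM was 15396 ± 322 untreated, 14050.1 ± 394 and 12126 ± 854 at 6 h and 13800.5 ± 309 and 13870.0 ± 789.8 at 24 h. The RPKM of all genes summed to 593633 to 660769 in untreated and 659047 to 1051041 in treated HCT116 libraries, and the single highest gene held 5.48 to 8.49% and 7.26 to 19.7% of it. In Ramos the members held 1.85% ± 0.118 untreated and 1.88 to 2.25% treated. In bulk RNA, fewer cells of a kind and less RNA per cell cannot be told apart.

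At the lower dose and 6 h, 33 of 65 tested members were called, 14 higher and 19 lower. Over all genes 47.3% were called, 15.5% higher and 31.8% lower, with a median log2 fold change of -0.12. The split depended on scaling: it was 26 higher and 5 lower after median-ratio scaling, 14 and 20 after quantile normalization, and 3 and 38 with equal sums, which moved the median of all genes to -0.42. At 10 μM and 6 h, 2 members rose and 14 fell, compared with 30% of all genes called (8.84% higher, 21.2% lower, median -0.11). There the split was 3 and 8, 4 and 14, and 0 and 36 under the same 3 scalings, with a median of all genes of -0.56 under equal sums. At the lower dose and 6 h 3 rises (EEF1E1, EIF1 and EIF3J) and 4 falls (EEF2, EIF2S3, EIF4B and EIF4EBP2) were called under each of the 3 scalings. At 10 μM and 6 h 0 rises and 8 falls were. Without the outlying replicate 3 of that group, 6 members rose and 27 fell, and without untreated replicate 1, 2 or 3 the count of called members was 5, 5 and 3. At the lower dose and 6 h it was 17 without untreated replicate 1 and 19 without untreated replicate 3.

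At the lower dose and 24 h 5 members rose and 13 fell, where 27.3% of all genes were called, 16.6% higher and 10.8% lower. At 10 μM and 24 h 11 rose and 16 fell, where 35.2% were called, 19.5% higher and 15.7% lower. Members called lower were thus 13 of 65 and 16 of 65, beside 10.8% and 15.7% of all genes. The count of called members at the lower dose was 9, 11 and 10 without untreated replicate 3, untreated replicate 1 and treated replicate 1. Under the 3 scalings the splits were 3 and 19, 5 and 18, and 0 and 21 at the lower dose, and 9 and 16, 9 and 20, and 0 and 23 at 10 μM. All 16 falls at 10 μM and 24 h were called under each of the 3 scalings, and none of the 11 rises was. At the lower dose and 24 h 12 falls and 0 rises were called under each of them.

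**Figure D2:**
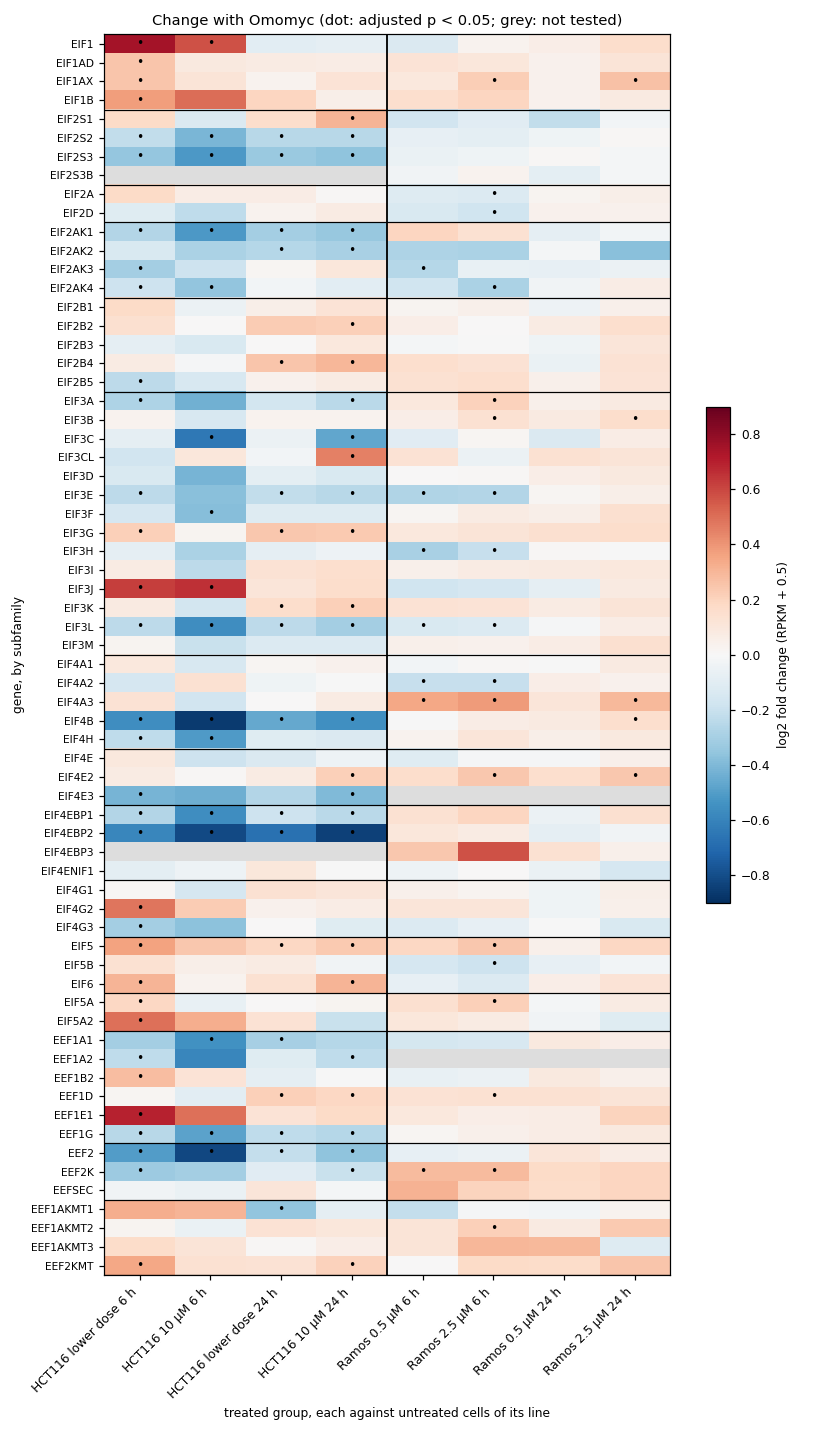
Log2 fold change of each tested member (rows, by subfamily) in the 8 treated groups (columns), each against untreated cells of its line, with blue lower and red higher. Dots mark an adjusted p under 0.05 and grey cells were not tested. EIF4EBP2, EIF4B, EEF2 and EIF2S3 are blue in all 4 HCT116 columns, and the Ramos columns are paler.

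EIF4EBP2, an inhibitor of eIF4E, fell at both doses and times. Its level was 29, 26.5 and 29.9 RPKM in the untreated HCT116 libraries. After 6 h it was 17.2, 20.2 and 19 at the lower dose and 15.5, 13.9 and 18.9 at 10 μM. After 24 h it was 18.2, 18.7 and 16.2 at the lower dose and 16.9, 14.7 and 15.5 at 10 μM. All 12 treated libraries lay below all 3 untreated ones, and over all genes the 2 groups of 3 did not overlap, in either direction, for 57.8% and 50.2% at 6 h and 44.9% and 49.3% at 24 h. The log2 fold change was -0.59 (SE 0.0804, adjusted p = 0.000451) at the lower dose and 6 h and -0.81 (SE 0.13, adjusted p = 0.00457) at 10 μM and 6 h. At 24 h it was -0.67 (SE 0.0703, adjusted p = 0.000542) at the lower dose and -0.84 (SE 0.0706, adjusted p = 5.25e-05) at 10 μM. EIF4EBP1 also fell in all 4 comparisons, from 51.6, 53.1 and 56.1 RPKM to 45, 47.4 and 43.3 at 10 μM and 24 h (-0.24, SE 0.0544, adjusted p = 0.00735). The third binding protein, EIF4EBP3, was under 0.5 RPKM on average in HCT116 and was not tested there.

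EIF4B, which stimulates the eIF4A helicase and carries both an E box and a pyrimidine start in the stretches above, had 456, 458 and 494 RPKM in untreated cells. It had 329.5, 321 and 307 at the lower dose and 285, 290.1 and 208 at 10 μM after 6 h. After 24 h the values were 342, 375 and 308 at the lower dose and 325, 341 and 296 at 10 μM. Again no treated library reached the untreated range. Its log2 fold changes were -0.56 (adjusted p = 0.000259), -0.86 (adjusted p = 0.0061), -0.46 (adjusted p = 0.00277) and -0.55 (adjusted p = 0.000318) in that order. The second of them was -0.71 (adjusted p = 8.76e-05) without the outlying replicate of 10 μM and 6 h. EIF4H, a relative of EIF4B, fell at 6 h (-0.23 and -0.51) and was -0.11 (adjusted p = 0.0945) and -0.13 (adjusted p = 0.0776) at 24 h. The helicase itself, EIF4A1, did not pass the test in any HCT116 comparison. It ranged over 729.5 to 737 RPKM untreated and 711 to 792 at 10 μM and 24 h, a log2 fold change of 0.04 (SE 0.0628, adjusted p = 0.674). Its paralog EIF4A2 was at -0.01 (SE 0.0543, adjusted p = 0.946).

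**Figure D3:**
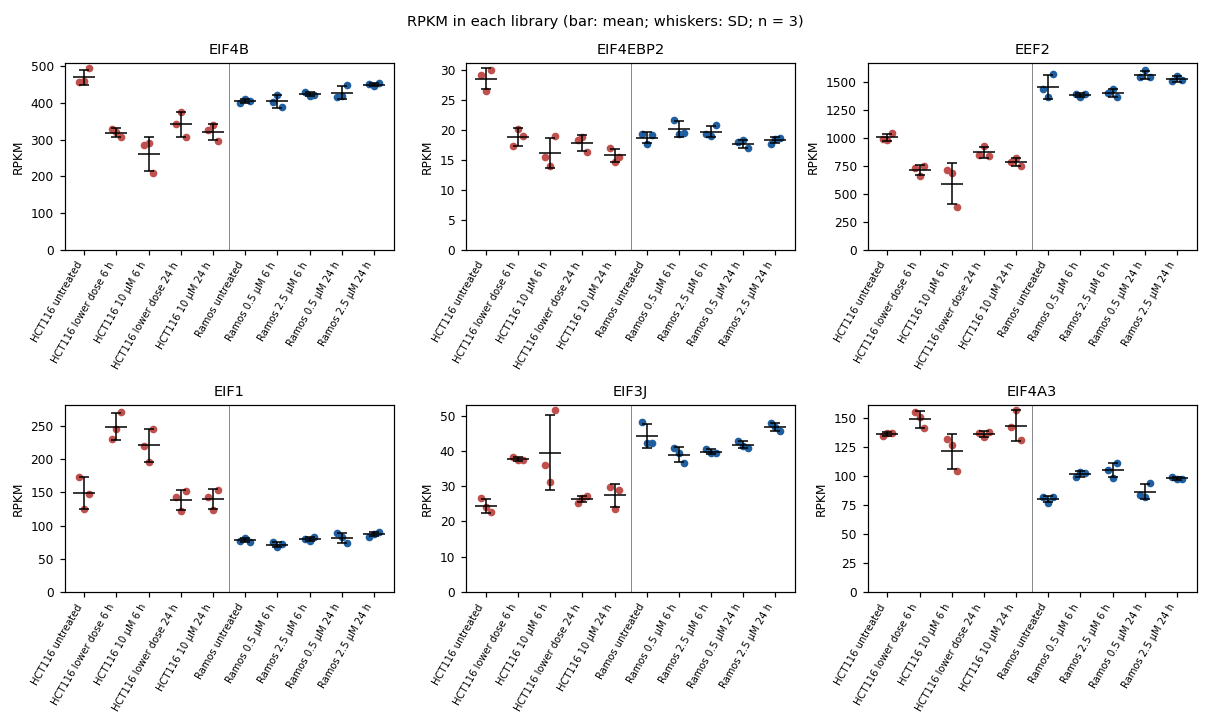
RPKM of 6 members in each library (points), with the mean (bar) and SD (whiskers) of 3 libraries, HCT116 in red and Ramos in blue. EIF4B, EIF4EBP2 and EEF2 lie lower in every treated HCT116 group than in untreated cells, EIF1 and EIF3J lie higher at 6 h only, and EIF4A3 lies higher in Ramos at 6 h.

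Neither the cap-binding protein nor its main scaffold was called in HCT116. EIF4E had 106, 101 and 103 RPKM untreated and 101, 102 and 97.7 at 10 μM and 24 h. Its log2 fold change was 0.09 (adjusted p = 0.426), -0.19 (adjusted p = 0.245), -0.13 (adjusted p = 0.079) and -0.05 (adjusted p = 0.456) over the 4 comparisons. Without the outlying replicate it fell at 10 μM and 6 h, by 0.29 (adjusted p = 0.00435) on the log2 scale. EIF4G1 was not called in any of them either, at 0.01, -0.15, 0.14 and 0.11, but with equal sums its value at the lower dose and 6 h was -0.33, the opposite sign. EIF4G2 (DAP5, a scaffold that lacks the eIF4E binding site) rose at the lower dose and 6 h, from 363, 316 and 351 to 466, 495 and 476 RPKM (0.48, SE 0.0737, adjusted p = 0.000783), and was 0.23 (adjusted p = 0.16) at 10 μM. EIF4G3, the third scaffold, fell in the comparison in which EIF4G2 rose (-0.30, adjusted p = 0.0143). Neither of these calls, of EIF4G2 and of EIF4G3, held under all 3 scalings. EIF4E2 (4EHP, a repressor that binds the cap) rose only at 10 μM and 24 h among the HCT116 comparisons (0.22, adjusted p = 0.0176). EIF4E3 fell at the lower dose and 6 h (-0.42) and at 10 μM and 24 h (-0.40).

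In the eIF2 group, the gamma and beta subunits fell while the alpha subunit did not. EIF2S3 (gamma, which binds GTP and the initiator tRNA) had 133, 133 and 145 RPKM in untreated cells. At the lower dose it had 109, 104 and 109 at 6 h and 110.2, 117 and 98.9 at 24 h. At 10 μM it had 97.3, 89 and 100.2 at 6 h and 110.1, 106 and 103 at 24 h. The treated libraries did not overlap the untreated ones, and the log2 fold change at 10 μM and 24 h was -0.36 (SE 0.0527, adjusted p = 0.000848). EIF2S2 (beta) changed by -0.23, -0.41, -0.25 and -0.25, a fall each time. EIF2S1 (alpha, the subunit that the kinases phosphorylate) rose at 10 μM and 24 h, from 78.8, 77 and 71.6 to 103, 88 and 91 RPKM (0.31, SE 0.0667, adjusted p = 0.00656), and was 0.16 (adjusted p = 0.143) at the lower dose.

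Among the 4 kinases of eIF2 alpha, EIF2AK1 (HRI, the heme-regulated inhibitor) fell in all 4 comparisons, from 47.7, 43.7 and 47.4 RPKM to 36.8, 38.1 and 34.5 at 10 μM and 24 h (-0.34, SE 0.0578, adjusted p = 0.0019). EIF2AK2 fell at 24 h at both doses (-0.26 and -0.29), and EIF2AK4 (GCN2, the sensor of uncharged tRNA) at 6 h at both doses (-0.19 and -0.36). EIF2AK3 fell at the lower dose and 6 h only (-0.30, adjusted p = 0.03), where its level was 5.98, 5.19 and 6.04 RPKM. In the exchange factor eIF2B, EIF2B4 rose at 24 h (0.25 and 0.30) and EIF2B2 at 10 μM and 24 h (0.22), EIF2B5 fell at the lower dose and 6 h (-0.24), and EIF2B1 and EIF2B3 were not called in any HCT116 comparison. The 6 h falls of EIF2AK4, EIF2AK3 and EIF2B5 were not called under all 3 scalings, nor were the 24 h rises of EIF2B4 and EIF2B2.

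EIF1 rose at 6 h at both doses. This factor, which guards the choice of the start codon, had 173, 126 and 148 RPKM in untreated cells. After 6 h it had 231, 246 and 272 at the lower dose and 221, 196 and 247 at 10 μM. After 24 h it had 143, 122 and 152 at the lower dose and 143, 124 and 154 at 10 μM. The 6 libraries of 6 h lay above all others of the line, and those of 24 h overlapped the untreated ones. The log2 fold change at 6 h was 0.75 (SE 0.112, adjusted p = 0.000696) at the lower dose and 0.57 (SE 0.148, adjusted p = 0.0246) at 10 μM. The latter was 0.49 (adjusted p = 0.0109) without the outlying replicate. With equal sums the 2 values were 0.41 and 0.08. EIF1B, EIF1AX and EIF1AD rose at the lower dose and 6 h and were not called at 10 μM (0.38, 0.25 and 0.25 at the lower dose), and at the lower dose the last 2 were -0.09 and -0.09 with equal sums. EIF5, the GTPase-activating protein of eIF2, rose in 3 of the 4 comparisons (0.37, 0.19 and 0.24, with 0.24, adjusted p = 0.0801 in the other), from 106, 105 and 107 RPKM to 124, 128 and 122 at 10 μM and 24 h. None of these rises of EIF5 was called under all 3 scalings. EIF6, which keeps the large subunit from joining too early, rose at the lower dose and 6 h (0.31, but -0.03 with equal sums) and at 10 μM and 24 h (0.31, and 0.12 with equal sums).

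The 14 eIF3 genes moved in both directions. EIF3J rose at 6 h, from 26.6, 24 and 22.7 RPKM to 38.3, 37.4 and 37.5 at the lower dose (0.62, SE 0.0722, adjusted p = 0.000209). At 10 μM it rose to 36, 31.1 and 51.6 (0.66, SE 0.183, adjusted p = 0.0318). The third of these values is the outlying library, and the change without it was 0.45 (adjusted p = 0.00419). At 24 h it was 0.11 and 0.16, not called, and the rise at 10 μM and 6 h was not called under all 3 scalings. With EIF3J up, the ratio of the highest to the lowest eIF3 subunit went from 19.9 ± 2.05 untreated to 10.9 ± 0.840 and 9.64 ± 0.933 at 6 h and 15.7 ± 1.56 and 15 ± 2.54 at 24 h. EIF3L fell in all 4 comparisons (-0.24, -0.56, -0.24 and -0.31), and EIF3E in all but the one at 10 μM and 6 h (-0.37, adjusted p = 0.0827). EIF3A, the large scaffold subunit, fell at the lower dose and 6 h (-0.28) and at 10 μM and 24 h (-0.24). EIF3G rose in 3 comparisons (0.22, 0.24 and 0.23) and EIF3K in those at 24 h (0.16 and 0.21), while with equal sums EIF3G was -0.12 at the lower dose and 6 h. EIF3F fell at 10 μM and 6 h (-0.38, adjusted p = 0.0324), and EIF3B, EIF3D, EIF3H, EIF3I and EIF3M were not called in any HCT116 comparison.

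EIF3C needs separate treatment because EIF3CL is a nearly identical copy of it, and reads can be assigned to either. At 10 μM and 24 h EIF3C fell (107, 113 and 122 RPKM untreated, 75.5, 83.3 and 88.7 treated, -0.47, SE 0.0697, adjusted p = 0.000979). EIF3CL rose (63.7, 49.5 and 49.7 untreated, 80.9, 62.3 and 80.6 treated, 0.46, SE 0.12, adjusted p = 0.0156). The sum of the pair was 171, 163 and 172 RPKM untreated and 156, 146 and 169 treated, with overlapping libraries and a log2 fold change of -0.10 (SE 0.0613, adjusted p = 0.218). At 10 μM and 6 h EIF3C fell by 0.65 on the log2 scale and the sum was at -0.36 (adjusted p = 0.0771). The changes of EIF3C and EIF3CL are therefore uncertain.

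Elongation factor mRNA took a smaller share of the members' RNA in treated HCT116 cells. EEF1A1, EEF1A2, EEF1B2, EEF1D, EEF1G and EEF2 together held 57.9% ± 0.726 of the members' RPKM untreated, 53.3% ± 0.609 and 52.8% ± 1.04 at 6 h and 54.8% ± 0.626 and 54.9% ± 1.29 at 24 h. EEF2, the translocase, had 989.8, 979 and 1041 RPKM in untreated cells. The 6 h values were 724, 657 and 745 at the lower dose and 708, 683 and 376 at 10 μM. The 24 h values were 845, 922 and 835 at the lower dose and 780.4, 816 and 742 at 10 μM. Each treated library was below each untreated one, and the value of 376 belongs to the outlying library. The log2 fold changes at 6 h were -0.50 (SE 0.0795, adjusted p = 0.000917) and -0.82 (SE 0.239, adjusted p = 0.0366), and the latter was -0.53 (adjusted p = 0.00037) without that library. Those at 24 h were -0.21 (SE 0.0565, adjusted p = 0.0243) and -0.36 (SE 0.0657, adjusted p = 0.00259).

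EEF1A1 had 5409.9, 5579 and 5807 RPKM untreated and 4775, 5059 and 4225 at 10 μM and 24 h, and no treated HCT116 library reached the untreated range. It fell at 10 μM and 6 h (-0.55, adjusted p = 0.0358) and at the lower dose and 24 h (-0.30, adjusted p = 0.0141). It was -0.30 (adjusted p = 0.0548) and -0.26 (adjusted p = 0.109) in the other comparisons. Quantile normalization, which gives the same top value to every library, set its change at the lower dose and 24 h to 0.00. EEF1G, a subunit of the exchange complex, fell in all 4 (-0.25, -0.48, -0.23 and -0.26), whereas EEF1D, another subunit, rose at 24 h (0.21 and 0.19, but 0.06 and 0.00 with equal sums). EEF1A2 fell at the lower dose and 6 h (-0.23) and at 10 μM and 24 h (-0.23). EEF2K fell in the same 2 comparisons (-0.33 and -0.20), from 11.8, 11.5 and 11.5 RPKM to 9.75, 9.65 and 10.7 at 10 μM and 24 h. For EEF1A2 and EEF2K the falls at 10 μM and 24 h were called under all 3 scalings. Those at the lower dose and 6 h were not. EEF1E1 (AIMP3, part of the multisynthetase complex) rose at the lower dose and 6 h, from 50.6, 45.8 and 47.4 to 74, 91.6 and 69.5 RPKM (0.70, SE 0.0989, adjusted p = 0.000544). It was 0.49 (adjusted p = 0.149) at 10 μM, where the libraries gave 57.2, 52.7 and 103. EIF5A rose by 0.19 (adjusted p = 0.0491) at the lower dose and 6 h, was -0.15 with equal sums, and was not called elsewhere in HCT116. EIF5A2, its rarer paralog, rose in the same comparison (0.50, adjusted p = 0.0048). Of the enzymes that methylate elongation factors, EEF1AKMT1 fell at the lower dose and 24 h (-0.36, adjusted p = 0.0249) and EEF2KMT rose at the lower dose and 6 h (0.35) and at 10 μM and 24 h (0.21).

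Compared directly, 24 h differed from 6 h at the lower dose for 13 of 65 members (5 higher, 8 lower), where 40.8% of all genes were called (30.9% higher, 9.85% lower) and the median of all genes was 0.16. The split was 0 and 20 after median-ratio scaling, 4 and 11 after quantile normalization, and 21 and 5 with equal sums. The largest falls from 6 to 24 h were those of EIF1 (-0.85, SE 0.0962, adjusted p = 0.000527) and EEF1AKMT1 (-0.68, SE 0.139, adjusted p = 0.00512). The largest rises were those of EIF2AK3 (0.32, SE 0.0958, adjusted p = 0.0258) and EIF4G3 (0.31, SE 0.0853, adjusted p = 0.0193). The libraries of the 2 times did not overlap for EIF1, as held in either direction for 54.6% of all genes. EIF3J (-0.51), EEF1E1 (-0.57) and EIF4G2 (-0.45) also fell between the times. At 10 μM EIF1 was the 1 member called (-0.66, SE 0.138, adjusted p = 0.0308), where 7.86% of genes were called (5.8% higher, 2.06% lower), and 9 were called without the outlying replicate of 6 h. None was called without replicate 1 of 10 μM at 6 h or without any one replicate of 10 μM at 24 h, and at the lower dose the count was 5 and 7 without replicates 1 and 2 of 24 h.

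No member was called different between the 2 doses of HCT116 at 6 h, where limma called 0% of genes, or at 24 h, where it called 0.18% (0.14% higher, 0.0399% lower). At 6 h the log2 difference, 10 μM minus lower dose, was positive for 8 of 65 members. Its median was -0.17 over the members and -0.02 over all genes. The groups did not overlap for 27 members (41.5%), beside 18.2% of all genes in either direction. These values include the outlying replicate. At an unadjusted p under 0.05 there were 5 members at 6 h and 6 at 24 h, and without replicate 3 of 10 μM at 24 h 1 member was called at 24 h. The largest difference at 24 h was that of EIF3CL (0.48, 10 μM minus lower dose), followed by EIF3C (-0.42, SE 0.0661, adjusted p = 0.0556), the near-identical pair. For EIF4EBP2 the values were 18.2, 18.7 and 16.2 RPKM against 16.9, 14.7 and 15.5, a log2 difference of -0.17 (SE 0.0785, adjusted p = 0.446).

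In Ramos fewer members were called, most of them at 6 h. The exon junction helicase EIF4A3 rose at 6 h at both doses and at 24 h at 2.5 μM, and EEF2K rose at 6 h. The eIF3 subunits EIF3E and EIF3H and the helicase EIF4A2 fell at 6 h, and at 24 h their libraries overlapped the untreated ones. None of these falls stayed called with equal sums. EIF4EBP2, EEF2 and EIF2S3, which fell in HCT116, were not called in any of the 4 comparisons of Ramos with untreated cells.

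At 6 h, 7 of 64 tested members were called at 0.5 μM (2 higher, 5 lower), where 23.6% of genes were called (13.8% higher, 9.73% lower). At 2.5 μM there were 18 (10 higher, 8 lower), where 27.9% of genes were called (17.3% higher, 10.7% lower). These splits became 2 and 8, and 6 and 9, after median-ratio scaling, 2 and 10 at both doses after quantile normalization, and 4 and 0, and 26 and 0, with equal sums, which moved the median of all genes to 0.11 and 0.16. The count at 0.5 μM was 4 without its replicate 2 and 3 without its replicate 3, and that at 2.5 μM was 6, 8 and 5 without its replicates 1, 2 and 3 and 11 without untreated replicate 1. At 24 h no member was called at 0.5 μM, where limma called 0.0146% of genes and 4 members had an unadjusted p under 0.05. At 2.5 μM and 24 h 5 members rose and 0 fell, where 4.61% of genes were called (3.3% higher, 1.31% lower). That count was 1 after median-ratio scaling, 2 after quantile normalization and 49 with equal sums (median of all genes 0.24), and it was 0 without any one of the treated replicates and 3 and 1 without untreated replicates 1 and 2.

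EIF4A3, an RNA helicase of the exon junction complex, had 81.6, 76.7 and 81.4 RPKM in untreated cells. At 6 h it had 98.9, 103 and 103 at 0.5 μM and 105, 98.4 and 111 at 2.5 μM. At 24 h it had 83.2, 81.7 and 93.5 at 0.5 μM and 98.8, 97.6 and 96.7 at 2.5 μM. All 12 treated libraries lay above the untreated ones, and over all genes the groups did not overlap, in either direction, for 41.4% and 44.7% at 6 h and 11.5% and 27.4% at 24 h. Its log2 fold change was 0.34 (SE 0.0459, adjusted p = 0.00107) and 0.38 (SE 0.0522, adjusted p = 0.00109) at 6 h. At 24 h it was 0.11 (adjusted p = 0.863) at 0.5 μM and 0.29 (SE 0.0406, adjusted p = 0.0111) at 2.5 μM. The 3 rises were called under each scaling. EEF2K had 7.35, 7.61 and 8.19 RPKM untreated, and at 6 h 10.1, 9.29 and 9.13 at 0.5 μM and 9.24, 9.11 and 10.2 at 2.5 μM. The groups did not overlap, and it rose by 0.28 (adjusted p = 0.0332) and 0.29 (adjusted p = 0.0268). Its rise at 0.5 μM was called under each scaling and that at 2.5 μM was not. Both genes carry the E box shown above.

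EIF3E had 416, 393 and 390.2 RPKM untreated, and at 6 h 340.4, 342 and 312 at 0.5 μM and 326, 349 and 325 at 2.5 μM. All 6 treated values were lower, and it fell by 0.27 (SE 0.0527, adjusted p = 0.00689) and 0.26 (SE 0.0456, adjusted p = 0.00363) on the log2 scale. EIF3H fell by 0.29 and 0.21, EIF3L by 0.14 and 0.12, and EIF4A2 by 0.21 and 0.20, but at 2.5 μM EIF3L was 0.02 with equal sums. No fall at 6 h in Ramos stayed called with equal sums, at either dose. At 0.5 μM EIF3E was then -0.18 (adjusted p = 0.16), EIF3H -0.20 (adjusted p = 0.0697) and EIF4A2 -0.11 (adjusted p = 0.336). Of the 10 rises at 2.5 μM and 6 h only those of EIF3A and EIF4A3 were called under all 3 scalings. By contrast EIF3A rose at 2.5 μM, from 102, 102 and 102 to 119, 115 and 119.7 RPKM (0.21, SE 0.0367, adjusted p = 0.00367). Among the kinases, EIF2AK3 fell at 0.5 μM (-0.26, adjusted p = 0.0269) and was -0.06 (adjusted p = 0.356) at 2.5 μM. EIF2AK4 fell at 2.5 μM (-0.28, adjusted p = 0.0245) and was -0.18 (adjusted p = 0.129) at 0.5 μM. EIF5B, which joins the subunits, and the alternative tRNA carriers EIF2A and EIF2D fell at 2.5 μM (-0.18, -0.12 and -0.18), but EIF2A was 0.02 with equal sums. EIF5 rose at 2.5 μM and 6 h, from 101, 83.3 and 90.8 to 108, 109 and 108 RPKM (0.24, adjusted p = 0.0237), and EIF5A in the same comparison (0.22, adjusted p = 0.0207). The most abundant member, EEF1A1, was -0.16 (adjusted p = 0.165) and -0.14 (adjusted p = 0.103) at 6 h and 0.09 (adjusted p = 0.871) and 0.06 (adjusted p = 0.582) at 24 h. Its 6 libraries of 6 h lay below the untreated ones and those of 24 h above them.

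The other risers at 2.5 μM and 24 h were EIF1AX, which helps scanning (38.1, 35 and 32.6 RPKM untreated, 41.6, 43.2 and 42 treated, 0.26, adjusted p = 0.0439), the cap-binding EIF4E2 (0.24, adjusted p = 0.0274), EIF3B (0.15, adjusted p = 0.0463) and EIF4B (0.15, adjusted p = 0.0422), the last moving opposite to HCT116. None of these rises was called under all 3 scalings, and after median-ratio scaling EIF4B was at 0.10 (limma adjusted p = 0.215). EIF1, EIF4E, EIF4G1, EIF4A1, EIF2S1, EIF2B3, EIF6, EIF3C, EIF4EBP1, EIF4EBP2 and EEF2 were not called in any of the 4 Ramos comparisons with untreated cells. For EIF1 the values were 0.03 (adjusted p = 0.709) at 2.5 μM and 6 h and 0.16 (adjusted p = 0.0989) at 24 h. EEF1A2 stayed at 0 RPKM in all 6 treated libraries of 6 h and at no more than 0.188 at 24 h.

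Between 6 and 24 h, 10 members differed at 0.5 μM (6 higher, 4 lower, where 25.4% of genes were called, 11.9% higher and 13.5% lower) and 17 at 2.5 μM (12 higher, 5 lower, where 23% were called, 12.7% higher and 10.4% lower). With equal sums the splits were 3 and 2, and 21 and 1. At 0.5 μM the count was 4 and 6 without replicates 2 and 3 of 6 h and 6 without replicate 3 of 24 h. At 2.5 μM it was 10 without replicate 1 of 6 h and 11 without replicate 3 of 24 h. EIF3E and EIF3H rose again at both doses, by 0.29 and 0.30 at 0.5 μM and 0.31 and 0.21 at 2.5 μM, and EIF2AK4 rose at 2.5 μM (0.35, SE 0.0584, adjusted p = 0.0031). EIF4A3 fell between the times at 0.5 μM (-0.24, SE 0.0562, adjusted p = 0.0128) and was -0.10 (adjusted p = 0.142) at 2.5 μM. EIF2AK1 fell at 0.5 μM (-0.27, SE 0.077, adjusted p = 0.0278), and EIF4EBP3 and EEF1AKMT3, both at low levels, fell at 2.5 μM (-0.52, SE 0.151, adjusted p = 0.0343 and -0.41, SE 0.121, adjusted p = 0.0367).

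No member differed between the Ramos doses, at 6 h (0.429% of genes called by limma) or at 24 h (4.25%), while 7 and 14 members had an unadjusted p under 0.05. With equal sums 20 members were called between the doses at 24 h, and without replicate 2 or 3 of 0.5 μM 1 was. The largest difference there, 2.5 μM minus 0.5 μM, was that of EEF1AKMT3 (-0.41, SE 0.137, adjusted p = 0.128).

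Whether the response differed between the lines was tested directly, as the change in HCT116 minus the change in Ramos. At the lower HCT116 dose (labelled 2 μM) and 2.5 μM in Ramos, 22 of 67 members differed at 6 h (8 higher, 14 lower in HCT116), where 40.6% of genes did (12.2% higher, 28.4% lower). The split was 19 and 8 after median-ratio scaling, 11 and 17 after quantile normalization and 0 and 50 with equal sums, which moved the median of all genes to -0.55. At 24 h all 16 that differed were lower in HCT116, where 16.3% of genes differed (6.81% higher, 9.51% lower). With the highest dose of each line at 24 h, 10 and 2.5 μM, 19 members differed and all 19 were lower in HCT116, where 22.5% of genes differed (9.65% higher, 12.9% lower). Equal sums raised these counts to 50 and 43, all lower. At 24 h at least the direction over the members did not depend on the scaling, with 14, 13 and 50 lower at the lower HCT116 dose, 17, 17 and 43 at the highest dose, and 0 higher under any of them. The count at the lower HCT116 dose and 24 h was 9 without replicate 3 of untreated HCT116 or replicate 3 of Ramos at 2.5 μM and 24 h.

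**Figure D4:**
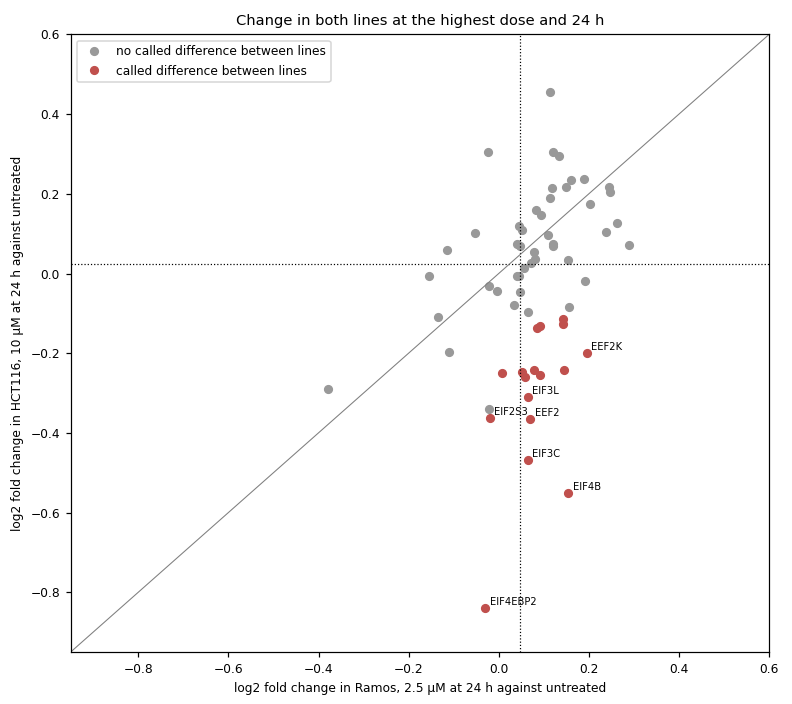
Log2 fold change of 62 members at 24 h in Ramos (2.5 μM, horizontal axis) and HCT116 (10 μM, vertical axis), with red for the 17 of them whose change differed between the lines. Dotted lines mark the medians of all genes (0.05 and 0.02) and the diagonal marks equal change. EIF4EBP2 lies lowest, at -0.84 in HCT116 and -0.03 in Ramos. EEF1A2 and EIF4E3, not tested in Ramos alone, are not drawn.

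Toward lower values in HCT116, EIF4EBP2 and EIF4B had the largest differences at 6 and 24 h among the members that could be tested in each line. The 22 called at 6 h include EIF4EBP3, which passed the filter through Ramos only and is given by its levels (0 in each HCT116 library of the lower dose and 6 h, 3.64, 3.01 and 2.53 RPKM in Ramos at 2.5 μM and 6 h), and the 19 at the highest dose include EEF1A2 and EIF4E3, which passed through HCT116 only. The difference in log2 fold change was -0.66 (SE 0.1, adjusted p = 0.000391) at 6 h, -0.64 (SE 0.0911, adjusted p = 0.00171) at the lower HCT116 dose and 24 h and -0.81 (SE 0.0904, adjusted p = 0.000216) at the highest dose for EIF4EBP2. For EIF4B it was -0.62 (SE 0.0637, adjusted p = 3.24e-05), -0.62 (SE 0.0849, adjusted p = 0.00144) and -0.71 (SE 0.0724, adjusted p = 0.000133) in the same order. EEF2K, which at 6 h fell at the lower dose in HCT116 and rose in Ramos, differed by -0.62 (adjusted p = 0.000448), -0.30 (adjusted p = 0.0412) and -0.40 (adjusted p = 0.00771). EEF1A1 differed by -0.36 (SE 0.0583, adjusted p = 0.00319) at the lower HCT116 dose and 24 h, a value that quantile normalization set to 0.00. EEF1G (-0.35), EEF2 (-0.43), EIF2S3 (-0.34), EIF2S2 (-0.26), EIF3L (-0.37), EIF3A (-0.32), EIF3F (-0.26) and EIF4EBP1 (-0.39) were also lower in HCT116 at the highest dose. The early rises were larger in HCT116 for EIF3J (0.77, SE 0.0915, adjusted p = 8.43e-05), EIF1 (0.72, SE 0.139, adjusted p = 0.00179) and EEF1E1 (0.64, SE 0.12, adjusted p = 0.00151). With equal sums these were 0.30, 0.25 and 0.16 and none of the 8 members higher in HCT116 stayed called.

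In a ratio between paired members a scaling factor of the library cancels, apart from the pseudocount. With 3 libraries a group the exact permutation test, two-sided, could not go below 0.1, and over the 76 ratios tested no adjusted p was under 0.21. The log2 ratio of EIF4EBP1 to EIF4EBP2 in HCT116 was 0.90 ± 0.09 untreated and 1.5 ± 0.14 at 10 μM and 24 h, a rise of 0.60 (exact p = 0.1). At the lower dose and 24 h it was 1.39 ± 0.12 (exact p = 0.1). In Ramos it was -0.32 ± 0.11 untreated and -0.15 ± 0.08 at 2.5 μM and 24 h (exact p = 0.2). The log2 ratio of EIF4E to EIF4E2 fell in 3 of the 4 HCT116 comparisons without overlap, by 0.20, 0.21 and 0.26 (exact p = 0.1 each), and was at 0.02 in that of the lower dose and 6 h. In Ramos its change was -0.27, -0.25, -0.16 and -0.20 (exact p = 0.1, 0.2, 0.1 and 0.1). The Ramos groups overlapped only at 2.5 μM and 6 h. The ratio of EIF4A1 to EIF4A2 in Ramos at 6 h was higher by 0.18 and 0.22, and that of EEF2K to EEF2 by 0.35 and 0.34 (exact p = 0.1 each). In HCT116 the ratio of EEF2K to EEF2 changed by 0.17, 0.52, 0.11 and 0.16 (exact p = 0.1, 0.1, 0.4 and 0.1). That of EIF4A1 to EIF4A2 changed by 0.25, -0.28, 0.05 and 0.04 in HCT116 (exact p = 0.1, 0.2, 0.5 and 0.7).

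The members were also grouped by the start of their transcripts. Of 12 with a pyrimidine start tested in HCT116, 3 and 5 fell at 6 h at the lower dose and 10 μM and 4 and 3 at 24 h, while 1, 0, 1 and 1 rose. Their median log2 fold change, less that of all genes, was -0.03, -0.19, -0.14 and -0.14. Of 39 members without such a start, 9, 5, 3 and 6 fell and 11, 2, 2 and 6 rose, with medians of 0.19, 0.04, 0.00 and 0.04 on the same scale. Beside them, 31.8%, 21.2%, 10.8% and 15.7% of all genes were called lower and 15.5%, 8.84%, 16.6% and 19.5% higher. The difference between lines at the highest dose was called lower in HCT116 for 7 of 13 members with a pyrimidine start and 6 of 40 without, beside 12.9% of all genes. The 2 groups were not tested against each other, and the starts are those of the reference annotation, not of these cells.

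**Figure D5:**
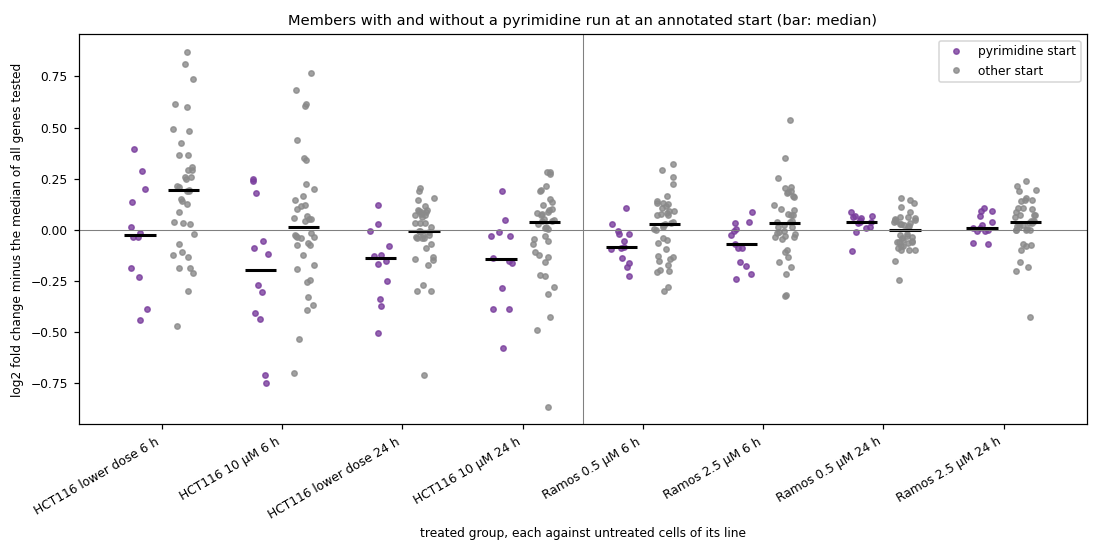
Log2 fold change minus the median of all genes tested, for members with and without a pyrimidine run at an annotated start, in the 8 treated groups, each against untreated cells. Points are genes and bars are medians, and in HCT116 the medians with a pyrimidine start run from -0.19 to -0.03, below those of the other members.

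In the list of 9 members known as TOP mRNAs (EEF1A1, EEF1B2, EEF1D, EEF1G, EEF2, EIF3E, EIF3F, EIF3H and EIF4B), 4, 5, 5 and 4 fell in the 4 HCT116 comparisons and 1, 0, 1 and 1 rose. In Ramos EIF3E and EIF3H were the 2 that fell at 6 h and none fell at 24 h. Members with an E box split without a common direction in HCT116: of 13 tested, 3, 3, 2 and 3 fell and 2, 0, 1 and 1 rose, among them EIF4B, EEF2K and EIF4H falling and EIF3K and EIF5A2 rising. In Ramos, of 14 tested, EIF4A3 and EEF2K rose at 6 h, EIF4A3 and EIF4B rose at 2.5 μM and 24 h, and none fell. Of 11 members listed as MYC targets, 2, 2, 1 and 1 fell and 4, 1, 0 and 1 rose in HCT116, with EIF2S2 the one that fell each time, and EIF4A1 and EIF4E among those not called. All of these HCT116 counts stand beside the same shares of all genes, 31.8%, 21.2%, 10.8% and 15.7% lower and 15.5%, 8.84%, 16.6% and 19.5% higher. The Ramos counts stand beside 9.73%, 10.7%, 0% and 1.31% of all genes called lower and 13.8%, 17.3%, 0.0146% and 3.3% higher.

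Other genes of the translation pathway, from lists of genes that are not EIF or EEF genes, give the setting. Of 13 genes of initiation and recycling, 2, 2, 4 and 5 fell in the 4 HCT116 comparisons and 2, 0, 1 and 0 rose, where 31.8%, 21.2%, 10.8% and 15.7% of all genes fell and 15.5%, 8.84%, 16.6% and 19.5% rose. PAIP2B, which keeps poly(A)-binding protein from the mRNA, fell by 1.28 (adjusted p = 7.95e-05) and 1.54 (adjusted p = 0.000506) on the log2 scale at 6 h and by 0.61 (adjusted p = 0.00198) at 10 μM and 24 h. PABPC1, the binding protein itself, fell by 0.51 (adjusted p = 0.00318) at 10 μM and 24 h. BZW2, a mimic of eIF5, fell in all 4. In Ramos 5 of the 13 fell at each dose at 6 h (PAIP2, BZW1, MCTS1, PABPC4 and DENR) and none at 24 h, with PAIP2 at -0.54 (adjusted p = 0.000288) and -0.54 (adjusted p = 0.000167). Of all genes 9.73% and 10.7% were called lower in Ramos at 6 h and 0% and 1.31% at 24 h. MCTS1 and DENR, which recycle small subunits together, rose at the lower dose and 6 h in HCT116 (0.25, adjusted p = 0.0156 and 0.19, adjusted p = 0.0381).

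Of 9 regulators, only PDCD4, PPP1R15A and RPS6KB1 are described, each with called changes, and how many of the 9 were called is not given. Of all genes 31.8%, 21.2%, 10.8% and 15.7% were called lower in HCT116 and 15.5%, 8.84%, 16.6% and 19.5% higher. PDCD4, an inhibitor of eIF4A, fell in all 4 HCT116 comparisons, by 1.37 (adjusted p = 1.73e-05) at the lower dose and 6 h and 1.29 (adjusted p = 5.72e-05) at 10 μM and 24 h on the log2 scale. In Ramos it fell at 6 h (-1.04, adjusted p = 0.000155 and -0.80, adjusted p = 0.000923). PPP1R15A (GADD34, which directs dephosphorylation of eIF2 alpha) rose in HCT116 at 6 h, by 1.42 (adjusted p = 1.93e-06) and 1.2 (adjusted p = 0.00195), and fell at 10 μM and 24 h (-0.46, adjusted p = 0.000433). RPS6KB1, the S6 kinase that acts on EIF4B and PDCD4, fell in all 4 HCT116 comparisons (-0.26, adjusted p = 0.00662 at the lower dose and 6 h) and in none of Ramos. Of 6 mitochondrial translation factors, TUFM and GFM2 fell at the lower dose and 6 h in HCT116, GFM2 rose at 24 h, and none was called in Ramos. Of 4 termination genes tested, HBS1L fell at 6 h in both lines, at -0.49 (adjusted p = 0.0102) in HCT116 at 10 μM and -0.26 (adjusted p = 0.00443) in Ramos at 2.5 μM. ETF1, the release factor, rose at the lower dose and 6 h in HCT116 and fell at 2.5 μM and 6 h in Ramos.

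A few members were too low to test. EIF2S3B, EIF4E1B, EIF4EBP3, EIF5AL1 and EEF1E1-BLOC1S5 averaged under 0.5 RPKM in HCT116, as did EEF1A2, EIF4E3, EIF4E1B, EIF5AL1 and EEF1E1-BLOC1S5 in Ramos. The readthrough gene EEF1E1-BLOC1S5 shares its first exons with EEF1E1, and reads of both cannot be told apart there. EEFSEC, the factor for selenocysteine, was at 3.48 ± 0.267 RPKM in HCT116 and 1.98 ± 0.11 in Ramos and was not called in any comparison with untreated cells.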

How the data were processed

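RNA-Seq libraries (Illumina TruSeq Stranded Total RNA, Ribo-Zero) of HCT116 and Ramos cells, 30 in all, were analysed from 1 table of RPKM values. The authors deposited the RPKM values per gene, computed upstream from their reads. Their processing notes name RSEM, and the aligner, genome build and annotation are not given in the sources used here. Groups came from the sample titles, since a label tag gives 4 hours for libraries titled 24 hours. The tested scale was log2(RPKM + 0.5) for genes with a mean of at least 0.5 RPKM over the libraries compared, fitted with lmFit and eBayes (trend) of limma 3.58.1 in R 4.3.3 with Benjamini-Hochberg adjustment over all genes. Fold changes on this scale understate changes of low genes. The fit was tested on simulated data. RPKM values hold no counts, so read depth could be set only relative to the deepest library and no counting interval is given. Replicate libraries correlated at r = 0.973 to 0.996 and none were identical. Gene names were matched for 57388 of 57992 identifiers.

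Members named with full values were 18 fixed genes (among them EIF1, EIF4E, EIF4G1, EEF1A1 and EEF2), the 3 largest called rises and falls in each comparison with untreated cells and in each difference between lines, the 2 largest in other comparisons, the 5 most abundant per line, and those under the filter. Other members are named as the called members of their subfamily, a choice made after their values were seen. After their values were seen, members that passed the filter through 1 line only (EIF4EBP3, EIF2S3B, EEF1A2, EIF4E3) were also left without a printed difference between the lines, and the called difference of EIF4EBP3 at 6 h is left out of the closing section, though each stays in the counts. The members and lists were chosen with earlier results of these data known. Median-ratio scaling, quantile normalization, scaling to equal sums, pseudocounts of 0.1 and 1, no filter and a filter of 2 RPKM, a fit of all groups, a replicate block and leaving out each library were alternatives, and the sum of EIF3C and EIF3CL was added after the data were seen. Promoter windows and their coordinates came from RefSeq (GRCh38.p14). Overlapping gene models (SENP3-EIF4A1, ANKHD1-EIF4EBP3, EEF1E1-BLOC1S5) may share reads with EIF4A1, EIF4EBP3 and EEF1E1.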

Additional observations from a re-analysis of the deposited data

Results flagged for a closer look

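The change after Omomyc differed between HCT116 and Ramos, by the test of the difference itself, for 22 of 67 members at 6 h and 16 at 24 h with the lower HCT116 dose and 2.5 μM in Ramos, and for 19 at 24 h with the highest doses. Of all genes 40.6%, 16.3% and 22.5% differed, in the same order. At 6 h the differences, HCT116 minus Ramos on the log2 scale, were 0.77 for EIF3J, 0.72 for EIF1, 0.64 for EEF1E1, -0.66 for EIF4EBP2 and -0.62 for EIF4B. With equal sums those of EIF3J, EIF1 and EEF1E1 did not stay called. At 24 h with the lower HCT116 dose they were -0.64 for EIF4EBP2, -0.62 for EIF4B and -0.36 for EEF1A1, and the last was 0.00 after quantile normalization. At 24 h with the highest doses they were -0.81 for EIF4EBP2, -0.71 for EIF4B and -0.53 for EIF3C, and for the sum of EIF3C and its near-identical copy EIF3CL the difference was -0.18 (adjusted p = 0.0852), not called. The highest doses differ between the lines and delivery is not described for Ramos, and neither can be told apart from the line.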

How the results depend on the processing

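Counts of called members depended on the scaling and on how the spread was estimated. With all groups in one fit the counts were 18 and 32 in HCT116 at 6 h (lower dose, then 10 μM), 4 and 11 at 24 h, 17 in Ramos at 0.5 μM and 6 h, 9 at 2.5 μM and 24 h, 15 and 16 for 24 against 6 h in HCT116 at 10 μM and Ramos at 0.5 μM, 1 for the HCT116 doses at 6 h and 1 for the Ramos doses at 24 h, and 7 and 11 for the differences between lines at 24 h (lower HCT116 dose, then highest). With equal sums they were 36 in HCT116 at 10 μM and 6 h, 4 in Ramos at 0.5 μM and 6 h, 49 at 2.5 μM and 24 h, 26, 0 and 5 for time in HCT116 at the lower dose, HCT116 at 10 μM and Ramos at 0.5 μM, 1 and 20 for the HCT116 and Ramos doses at 24 h, and 50, 50 and 43 for the differences between lines. Median-ratio scaling gave 1 in Ramos at 2.5 μM and 24 h and 20 and 2 for time in HCT116, quantile normalization gave 12 in Ramos at 0.5 μM and 6 h, 2 at 2.5 μM and 24 h and 2 for time in HCT116 at 10 μM, and a filter of 2 RPKM gave 1 and 2 for the HCT116 and Ramos doses at 24 h. Without a filter the counts were 9 in HCT116 at 10 μM and 6 h, 8 at the lower dose and 24 h, 9 and 1 in Ramos at 2.5 μM at 6 and 24 h, 7, 0, 5 and 11 for time (HCT116 lower dose and 10 μM, Ramos 0.5 and 2.5 μM) and 10 for the difference at the lower HCT116 dose and 24 h. The replicate numbers did not pair the libraries (mean correlations of same-numbered deviations -0.172 to 0.0967, with 0 of 17 comparisons over 0.1 in every pair), and with the replicate block the counts were 10 and 1 in Ramos at 2.5 μM at 6 and 24 h, 0 for time in HCT116 at 10 μM, 2 for the HCT116 doses at 24 h, and 8 and 12 for the differences between lines at 24 h.

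Leaving out 1 library at a time gave 17 to 34 and 3 to 33 in HCT116 at 6 h, 9 to 17 and 18 to 27 at 24 h, 3 to 7 and 5 to 16 in Ramos at 6 h, 0 to 0 and 0 to 7 at 24 h, 5 to 13, 0 to 9, 4 to 11 and 10 to 15 for time in the order above, 0 to 0 and 0 to 1 for the HCT116 doses, 0 to 0 and 0 to 1 for the Ramos doses, 50 to 54 between the untreated lines, and 20 to 26, 9 to 16 and 14 to 21 for the differences between lines. Of the log2 fold changes of members named with full values, 10 were counted as reversed, each with equal sums. These were EIF4G1 (-0.33), EIF5A (-0.15) and EIF6 (-0.0289) in HCT116 at the lower dose and 6 h, EIF4A1 (-0.40), EIF4A2 (-0.42), EIF4E (-0.38) and EIF6 (-0.045) in the difference between lines at 6 h, EIF2AK3 (-0.29) and EIF6 (-0.35) in that at the lower HCT116 dose and 24 h, and EIF4G1 (-0.33) in that at the highest dose. Quantile normalization set EEF1A1 to 0.00 at the lower dose and 24 h and in the difference there. Of the rest, 1814 values kept direction and side of the threshold, 116 lost and 77 gained the call, and the ratios of member pairs moved by less than their SD. The cause was not tested. Relative depth was lower in treated than in untreated HCT116 libraries.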
